A study of Bos grunniens x Bos taurus and Bos grunniens with 6 samples.

Results

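Cathepsins are proteases that work mostly in the lysosome, and 10 of their symbols were examined in the testis of cattle-yak and yak: CTSA, CTSB, CTSC, CTSD, CTSF, CTSH, CTSK, CTSL, CTSS and CTSZ. The symbols were chosen with earlier results of these data known. Rows were taken by name alone, and every row of the expression table whose symbol matched, ignoring case, was kept as its own gene. In this way 7 of the 10 symbols were found on 8 of 18918 genes, because CTSL stands on 2 genes, while CTSD, CTSF and CTSS are not analysed here. The values are FPKM (fragments on a gene, divided by the length of its model and by the depth of the library), and all 8 genes reached the mean of 0.5 FPKM over the 6 libraries that was required for a test.

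The study compared whole testis tissue of 3 cattle-yaks (C1, C2 and C3), sterile F1 hybrids sired by Jersey bulls out of Gannan yak cows, with that of 3 Gannan yaks (Y1, Y2 and Y3). Each library came from 1 male of 4 years. The hybrids were surgically castrated and the yaks euthanized, and the 2 groups lived in different counties, so these conditions cannot be told apart from the hybrid state. Reads of both groups were mapped to the yak genome, which lacks those Jersey alleles of the hybrids that differ from it.

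Between 11175100 and 11834987 fragments on genes lay behind a cattle-yak library and between 12991641 and 13136129 behind a yak library. The table fitted the label of testis, since markers of Sertoli, Leydig and germ cells were present in every library. Spermatid markers differed widely between the groups, and the 6 elongating spermatid genes summed to 52.6 to 168 FPKM in cattle-yak and to 8952 to 10786 in yak. In bulk tissue, fewer cells of a type and less RNA per cell cannot be told apart. Over the 15042 genes tested, the median log2 (foldchange) of cattle-yak minus yak was 0.51, with a lower quartile of −0.70 and an upper quartile of 1.27, and each change is read beside that median.

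Cathepsins are made as inactive precursors, carried to the lysosome mostly by mannose 6-phosphate receptors, and activated there by the acid pH. Most of them, among the genes here all except CTSA, are cysteine proteases of the papain family. Cystatins are their natural inhibitors and act inside the cell or in the fluid around it. In the testis cathepsins take part in the breakdown of engulfed germ cells and residual bodies by Sertoli cells, and cathepsin L is a known secretory product of the rat Sertoli cell.

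In cattle-yak the summed level of the 8 genes was 665, 750 and 657 FPKM across C1 to C3, next to 233, 217 and 222 across Y1 to Y3. The mean was therefore 691 ± 51.6 FPKM among hybrids and 224 ± 8.23 FPKM among yaks (SD, n = 3), a ratio of 3.08. Every cattle-yak library stood above every yak library (exact permutation test, two-sided, p = 0.1, the smallest that 3 against 3 allow). A gene counted as called when its Benjamini-Hochberg adjusted p in limma was under 0.05 and its log2 (foldchange) beyond 1, which held for 54.2% of all tested genes in either direction. By this rule 5 of the 8 genes were called higher in cattle-yak (CTSA, CTSB, CTSC, CTSK and the more abundant CTSL), as were 33.4% of all tested genes. With the libraries centred on Sertoli genes, as described further on, none was called higher, and only 0.28% of all tested genes were. As deposited, none of the 8 was called lower, against 20.8% of all tested genes, although CTSH had a lower level in cattle-yak. All 8 passed the adjusted p alone in limma, 7 higher and 1 lower, as did 81.9% of all tested genes, 52.6% as higher and 29.2% as lower. The median log2 (foldchange) of the 8 genes was 1.52. In all 8 the libraries of the groups did not overlap, with 7 higher and 1 lower, and this was so for 84.1% of the tested genes, 53.9% higher and 30.2% lower.

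**Figure D1:**
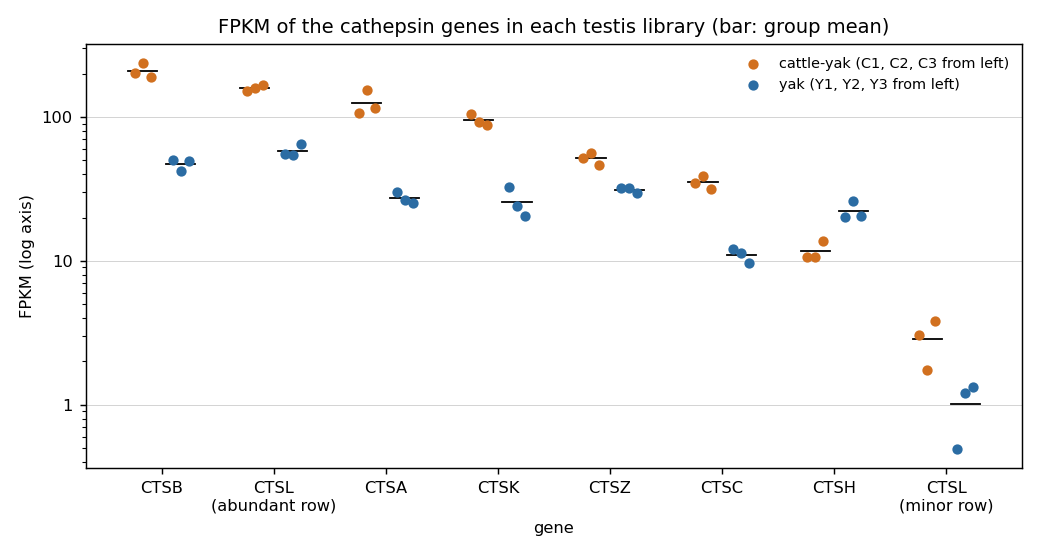
Each point is the FPKM of a cathepsin gene in 1 library on a log axis, with cattle-yak in orange, yak in blue and the group mean as a bar. As deposited, cattle-yak points lie above the yak points for 7 genes and below them for CTSH, and no gene overlaps between the groups.

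Cathepsin B cleaves proteins internally and also removes dipeptides from their carboxyl end. CTSB (ENSBGRG00000002892) measured 202, 236 and 191 FPKM across C1 to C3, next to 50.2, 42.1 and 49.5 across Y1 to Y3. The lowest cattle-yak value was 3.80 times the highest yak value. Its level was the highest of the family in cattle-yak and rested on 4652 to 5548 fragments per library there. It rose by a log2 (foldchange) of 2.13 (SE 0.12, adjusted p = 1.1e-06 in limma), which only 5.74% of all tested genes exceeded.

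Cathepsin L is a strong endopeptidase of the lysosome. The symbol CTSL stands on 2 genes whose descriptions in the table differ: the more abundant one, ENSBGRG00000012003, is described as cathepsin V, and the less abundant one, ENSBGRG00000006446, as cathepsin L. Reads could be split between such close relatives, so the assignment of each value is uncertain. The more abundant gene measured 152, 160 and 168 FPKM across C1 to C3, next to 55.3, 54.5 and 65.2 across Y1 to Y3. It rose by 1.44 on the log2 scale (SE 0.10, adjusted p = 4.1e-06 in limma). The groups were far apart and the cattle-yak animals close together, with a coefficient of variation of 4.86%, the smallest of the family in that group.

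The less abundant CTSL gene measured 3.03, 1.73 and 3.84 FPKM across C1 to C3, next to 0.49, 1.21 and 1.33 across Y1 to Y3. Only 27 to 62 fragments per cattle-yak library and 9 to 24 per yak library stood behind these values. The groups came close to each other, with C2 at 1.31 times Y3. The log2 (foldchange) of 0.93 (95% interval 0.33 to 1.54, adjusted p = 0.010 in limma) was under the threshold of 1. It passed that threshold without C2 (1.16), without Y2 (1.015) and without Y3 (1.05). It also passed it with a pseudocount of 0.1 (1.45) and in limma voom on the recovered fragments (1.54). It stayed under the threshold without C1 (0.88), without C3 (0.75) and without Y1 (0.73). With median-of-ratios scaling it was 0.56 and no longer passed the adjusted p (0.089 in limma).

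Cathepsin K degrades collagen and is best known from the osteoclast, the bone-resorbing cell. CTSK (ENSBGRG00000001240) measured 104.5, 92.5 and 87.5 FPKM across C1 to C3, next to 32.4, 24.1 and 20.5 across Y1 to Y3. Its rise of 1.86 on the log2 scale (SE 0.16, adjusted p = 1.4e-05 in limma) was exceeded by 10.03% of the tested genes. The yak animals were more spread than the hybrids, at 23.8% against 9.21% of the mean.

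Among the exopeptidases, cathepsin C removes dipeptides from the amino end and activates the serine proteases of immune cell granules. CTSC (ENSBGRG00000025732) measured 34.95, 39.0 and 31.7 FPKM across C1 to C3, next to 11.99, 11.3 and 9.73 across Y1 to Y3. It rose by 1.59 on the log2 scale (SE 0.13, adjusted p = 7.6e-06 in limma). Cathepsin Z, a carboxypeptidase also called cathepsin X, was the least changed. CTSZ (ENSBGRG00000024860) measured 51.6, 56.6 and 46.4 FPKM across C1 to C3, next to 32.2, 31.8 and 29.7 across Y1 to Y3. The groups did not overlap, but the log2 (foldchange) of 0.70 (95% interval 0.46 to 0.94, adjusted p = 3.2e-04 in limma) was under the threshold and near the 0.51 of the median tested gene.

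Cathepsin H, an aminopeptidase, went the other way. CTSH (ENSBGRG00000018563) measured 10.7, 10.7 and 13.7 FPKM across C1 to C3, next to 20.3, 25.9 and 20.4 across Y1 to Y3. Each hybrid lay under each yak, whose mean was 1.90 times higher. The log2 (foldchange) was −0.87 (95% interval −1.21 to −0.52, adjusted p = 6.9e-04 in limma), short of the threshold, and 77.3% of all tested genes had a larger value. With each animal left out in turn it lay between −0.98 and −0.76. With median-of-ratios scaling, which lowers all but low genes nearly alike, it was past the threshold (−1.45).

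Cathepsin A is the exception in mechanism, a serine carboxypeptidase that also protects lysosomal β-galactosidase and neuraminidase in a common complex. CTSA (ENSBGRG00000019162) measured 106, 154 and 115 FPKM across C1 to C3, next to 30.3, 26.6 and 25.4 across Y1 to Y3. It showed the largest ratio of means in the family, 4.55, with C2 standing above the other hybrids. The log2 (foldchange) was 2.13 (SE 0.15, adjusted p = 4.0e-06 in limma) and lay between 1.97 and 2.24 with any animal left out.

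**Figure D2:**
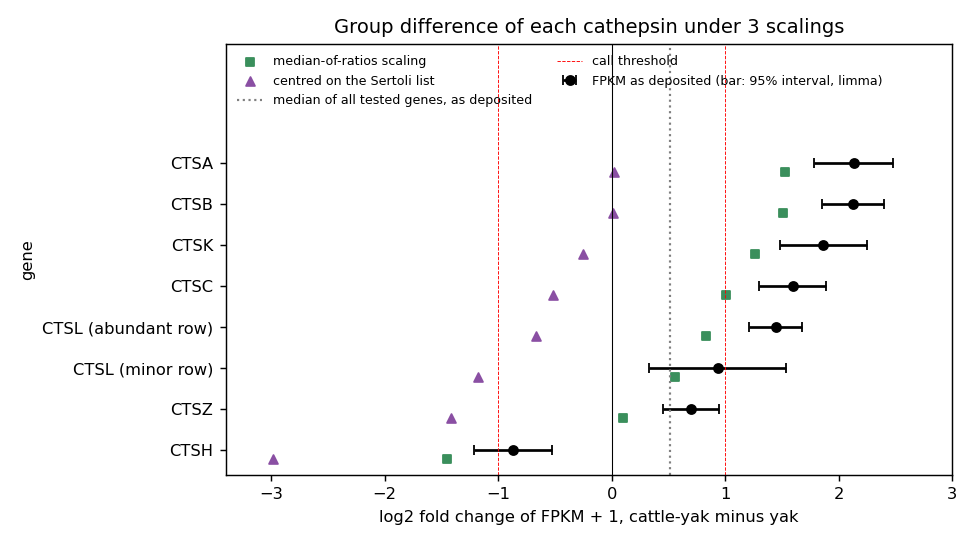
Black points are the log2 (foldchange) of each gene with its 95% interval in limma, green squares the values after median-of-ratios scaling and purple triangles those after centring on the Sertoli list; the dotted line is the median of all tested genes at 0.51. CTSA and CTSB lie highest at 2.13 and CTSH lowest at −0.87 as deposited, and 5 further genes are below 0 after Sertoli centring.

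The level of the family as a whole depended on the scaling. Both scalings move all but low genes by nearly the same amount, so the order of the 8 genes by log2 (foldchange) is not tested by them. Median-of-ratios scaling brings the median of all tested genes to 0.01. After it, CTSA (1.53), CTSB (1.51), CTSK (1.26) and CTSC (1.007) were called higher and CTSH (−1.45) lower, while the more abundant CTSL came to 0.83 and CTSZ to 0.096. In that scaling 17.7% of all tested genes were called higher and 27.7% lower. When each library was instead centred on 13 tested Sertoli genes, CTSA and CTSB came to 0.02 and 0.01. The other 6 genes then had values below 0, and CTSZ (−1.42), CTSH (−2.98) and the less abundant CTSL (−1.18) were called lower, as were 70.2% of all tested genes.

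Shares of the summed cathepsin FPKM do not depend on how libraries are scaled to each other. CTSB made up 30.4%, 31.5% and 29.0% of the sum in C1, C2 and C3, and 21.5%, 19.4% and 22.3% in Y1, Y2 and Y3. The share of CTSA was 18.0% ± 2.33 among hybrids against 12.2% ± 0.76 among yaks (SD, n = 3). CTSH held 1.71% ± 0.34 of the sum among hybrids but 9.94% ± 1.72 among yaks (SD, n = 3). For CTSZ the shares were 7.45% ± 0.35 and 13.95% ± 0.63 (SD, n = 3). These 4 genes separated the groups completely, 2 with a higher and 2 with a lower share in cattle-yak, and each gave p = 0.1 in the exact permutation test (two-sided), the smallest possible. The shares of CTSC, CTSK and both CTSL genes overlapped between the groups, with p from 0.3 to 0.9 in the same exact test. On the log2 (FPKM + 1) scale, relative to the mean of the 8 genes in each library, CTSC (0.35) and CTSK (0.62) did not overlap (p = 0.1, exact permutation test).

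**Figure D3:**
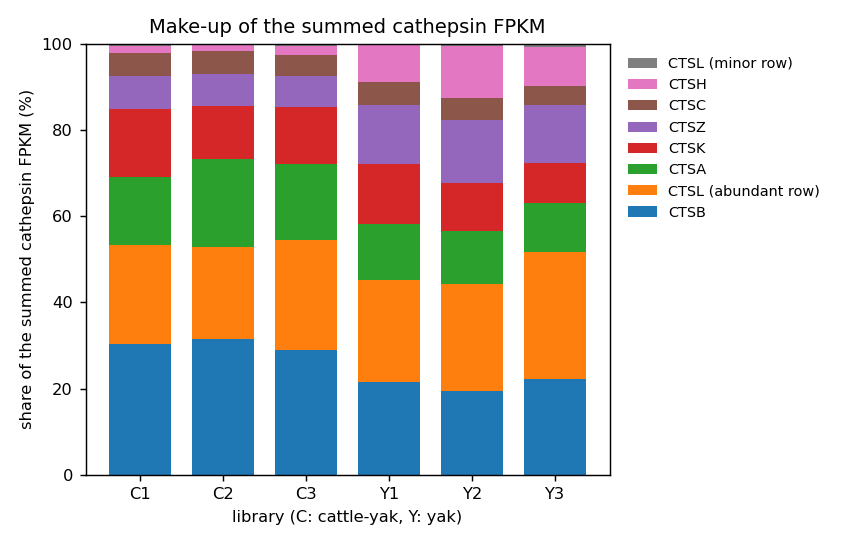
Each bar is 1 library, divided by the percentage of the summed cathepsin FPKM that each gene holds. The bands of CTSB and CTSA are wider in C1 to C3, and those of CTSZ and CTSH are wider in Y1 to Y3, where CTSH takes 8.71% to 11.9%.

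FPKM is a level per length, so genes can be ordered by it. In cattle-yak the order was CTSB, the more abundant CTSL, CTSA, CTSK, CTSZ, CTSC, CTSH and the less abundant CTSL. Along it only the ranges of the more abundant CTSL and CTSA overlapped across animals, although within each hybrid that CTSL was above CTSA. The ranges of all other neighbours were separate. In yak the more abundant CTSL stood first at 58.3 ± 5.95 FPKM and CTSB second at 47.3 ± 4.51 (SD, n = 3). CTSZ (31.3 FPKM), CTSA (27.4), CTSK (25.7) and CTSH (22.2) followed, and the ranges of neighbours among these overlapped across animals. Within each yak CTSZ was above CTSA, while CTSK was above CTSA in Y1 and CTSH above CTSK in Y2. CTSC (10.99 FPKM) and the less abundant CTSL (1.008) came last, without overlap. The range from CTSZ to CTSH, narrow in yak, was spread in cattle-yak from 125 FPKM for CTSA to 11.7 for CTSH.

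Other cathepsins of the table, outside the 10 symbols, were CTSO, CTSW and CTSG. CTSO (ENSBGRG00000004715), a little-studied papain relative, measured 16.4, 20.7 and 20.5 FPKM across C1 to C3, next to 2.15, 3.004 and 3.56 across Y1 to Y3. Its rise of 2.38 on the log2 scale (adjusted p = 5.3e-06 in limma) was larger than that of any of the 8 genes. CTSW (ENSBGRG00000020304), known from cytotoxic lymphocytes, showed 8.72 to 16.5 FPKM among hybrids against 2.71 to 7.09 among yaks, at a log2 (foldchange) of 1.34 (adjusted p = 4.1e-03 in limma) that was 0.80, without a call, after median-of-ratios scaling. Of the 6 tested rows of a list of T and NK cell markers 3 were called higher, with 0 after median-of-ratios scaling, 1 without C2 or without Y3 and 5 without Y2. The summed FPKM of the list reached 19.8 to 36.9 among hybrids against 9.16 to 22.5 among yaks; their part in the CTSW result was not tested. CTSG, a neutrophil serine protease, had at most 6 fragments in any library and was not tested.

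The inhibitors moved in opposite directions as deposited and after median-of-ratios scaling. After Sertoli centring 3 were called lower and 0 higher, beside 70.2% and 0.28% of all tested genes. Of a list of 17 cystatin superfamily and related symbols, 10 genes were present and 7 were tested, of which 4 were called higher and 3 lower, and 3 lay under the minimum. CST3 (ENSBGRG00000007838), which encodes cystatin C, the major secreted inhibitor of cysteine cathepsins, measured 816, 873 and 971 FPKM across C1 to C3, next to 112, 133 and 142 across Y1 to Y3. It rose by 2.77 on the log2 scale (adjusted p = 3.9e-07 in limma), and only 0.85% of the tested genes exceeded it. Per unit of summed cathepsin FPKM there were 1.29 ± 0.17 units of CST3 among hybrids against 0.578 ± 0.086 among yaks (SD, n = 3, exact permutation test, two-sided, p = 0.1, the smallest possible). The 3 hybrids had a ratio of 1.16 to 1.48 and the yaks one of 0.48 to 0.64. CST3 rose more than any cathepsin in the sum, so the direction of this ratio follows from the fold changes. The sum also includes CTSA, which is not a cysteine protease.

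CST9 (ENSBGRG00000007806), a cystatin relative, was the most abundant of these genes, at 1862, 1300 and 1450 FPKM across C1 to C3 and 372, 358 and 452 across Y1 to Y3. Its log2 (foldchange) was 1.95 (adjusted p = 7.7e-06 in limma). CST7, the cystatin of immune cells that restrains cathepsin C, and AHSG, a plasma glycoprotein of the same superfamily, were the other genes called higher (1.47 and 1.17), and both were named after their values were seen. After median-of-ratios scaling AHSG came to 0.85 and was no longer called. They had low levels, 4.18 ± 1.30 and 2.33 ± 0.36 FPKM in cattle-yak (SD, n = 3).

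The genes of this list called lower were CSTL1, CST8 and CST6. CST8 (ENSBGRG00000007704), the cystatin-related gene of epididymis and germ cells, measured 93.7, 88.4 and 79.1 FPKM across Y1 to Y3, next to 1.18, 0.42 and 0.60 across C1 to C3. CSTL1 (ENSBGRG00000007456), a cystatin-like gene, showed 106 to 141 FPKM among yaks against 0.22 to 1.66 among hybrids. Both were close to absent from the hybrids, with 2 to 6 fragments of CST8 and 1 to 8 of CSTL1 per library. The log2 (foldchange) was −5.69 for CST8 and −6.17 for CSTL1 (adjusted p = 1.2e-07 and 4.8e-07 in limma), and at such low counts its size rests on the pseudocount. Cst13, a further cystatin outside the list that was named after its values were seen, showed 121 to 160 FPKM among yaks against 0.57 to 1.32 among hybrids and was called lower too (log2 (foldchange) −6.24, adjusted p = 9.8e-08 in limma). CST6 (ENSBGRG00000018549), which encodes cystatin M/E, an inhibitor of cathepsin L and legumain, showed 80.1 ± 1.73 FPKM among yaks against 19.9 ± 1.59 among hybrids (SD, n = 3). It fell by 1.96 on the log2 scale (adjusted p = 6.9e-07 in limma). All 6 tested genes of the round spermatid list and all 6 of the elongating spermatid list were also called lower; the part of these cells in the cystatin results was not tested.

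**Figure D4:**
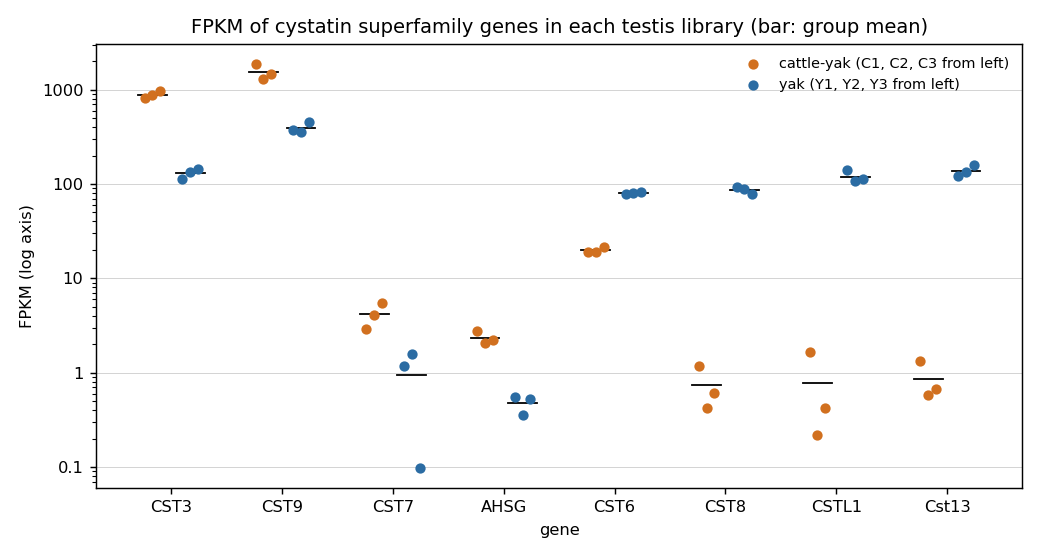
Points are the FPKM of the tested cystatin superfamily genes and of Cst13 in each library, on a log axis, with group means as bars. CST3, CST9, CST7 and AHSG are higher in cattle-yak as deposited, and CST6, CST8, CSTL1 and Cst13 are higher in yak, with the last 3 near 1 FPKM or under it in most hybrids.

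Genes whose products process the cathepsins or work with them were mostly higher in cattle-yak, with 5 of 7 called higher and none lower. Their median log2 (foldchange) was 1.503, although median-of-ratios scaling left 2 called higher and 1 lower. PSAP, the precursor of the saposins that help lysosomal enzymes reach their lipids, was the most abundant, with 1474 ± 93.0 FPKM among hybrids against 299.9 ± 40.7 among yaks (SD, n = 3) and a log2 (foldchange) of 2.30. TPP1, a lysosomal tripeptidyl peptidase, had the largest value, 2.65, with a mean of 26.2 FPKM in cattle-yak and 3.44 in yak. The partners of CTSA in its complex, GLB1 (β-galactosidase) and NEU1 (neuraminidase), had 1.57 and 1.14, and LGMN, the legumain that cleaves cathepsin precursors, had 1.503, all called higher. After median-of-ratios scaling they came to 0.96, 0.55 and 0.96, under the threshold. These last 3 genes were named after their values were seen. DPP7, a dipeptidyl peptidase, showed 52.1 ± 3.51 FPKM among hybrids against 88.1 ± 11.9 among yaks (SD, n = 3). Its difference was −0.74 on the log2 scale (adjusted p = 4.5e-04 in limma) and, like that of CTSH, passed the threshold after scaling, at −1.35 with median-of-ratios factors and −2.86 with Sertoli centring.

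For sorting to the lysosome, 5 of 8 genes were called higher and none lower, and 3 higher after median-of-ratios scaling. M6PR, the cation-dependent mannose 6-phosphate receptor, showed 179 ± 19.4 FPKM among hybrids against 82.5 ± 4.35 among yaks (SD, n = 3), a log2 (foldchange) of 1.11 that was 0.49 after median-of-ratios scaling. SCARB2, the receptor of glucocerebrosidase, had the largest rise, 2.24. The lower of the 2 GNPTG genes, whose split of reads is uncertain, had under 2 FPKM in each library and a log2 (foldchange) of −0.24 (adjusted p = 0.54 in limma).

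The lysosomal membrane and its proton pump were less uniform, with 5 of 11 genes called higher, 1 lower and a median of 0.90, and 3 higher and 1 lower after median-of-ratios scaling. LAMP1, the main membrane glycoprotein, was the most abundant, and its groups overlapped, with 309 ± 25.4 FPKM among hybrids against 320 ± 27.0 among yaks (SD, n = 3, log2 (foldchange) −0.05, adjusted p = 0.66 in limma). ATP6AP1, an accessory subunit of the proton pump, rose by 2.09 on the log2 scale, to a mean of 209.6 FPKM from 48.4 in yak. A minor row of CD63 (ENSBGRG00000009908), uncertain because CD63 stands on 2 genes, was called lower, while the major row rose by 2.09. The minor row had no fragment in the hybrids and 55, 74 and 88 in Y1, Y2 and Y3, which is at least 20.6-fold lower against a floor of 3 fragments per library.

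Among the MiT transcription factors, which switch on lysosomal genes, TFEB and TFE3 were called higher and MITF and TFEC were not. MITF averaged 2.81 FPKM among hybrids against 1.16 among yaks, without overlap (log2 (foldchange) 0.84, adjusted p = 2.9e-03 in limma). With a pseudocount of 0.1 or in voom, 3 genes of this list were called higher. TFE3 was the most abundant, with 60.2 ± 3.72 FPKM among hybrids against 16.4 ± 1.46 among yaks (SD, n = 3). It rose by 1.82 on the log2 scale (adjusted p = 1.6e-06 in limma). TFEC had about 1 FPKM in both groups and a log2 (foldchange) of 0.06 (adjusted p = 0.81 in limma).

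Of 5 matrix genes around cathepsin K, 3 were called higher and 2 lower. COL1A1, the main fibrillar collagen and a known substrate, rose by 2.83 on the log2 scale and averaged 53.0 ± 7.81 FPKM among hybrids against 6.58 ± 0.97 among yaks (SD, n = 3). SPARC, a collagen-binding glycoprotein, was the most abundant and had 2.51. The genes called lower, ACAN (−2.02) and COL2A1 (−1.88), encode the cartilage proteins aggrecan and collagen II, and both had under 7 FPKM in each library. The osteoclast list had a median log2 (foldchange) of 0.08 over 4 tested rows, 1 of them called higher (2 with a pseudocount of 0.1 or in voom) and 1 lower, and a summed level of 6.69 to 11.3 FPKM in cattle-yak and 7.14 to 8.42 in yak. Granule proteases that cathepsin C activates were scarce: only 2 of 6 rows could be tested, GZMK with 0.12 and the more abundant GZMH row with −1.17, the latter called lower at 2.08 FPKM in yak and 0.36 in cattle-yak.

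Markers of somatic cell types that can carry cathepsins differed between the groups too. All 13 tested Sertoli rows were called higher, with a median log2 (foldchange) of 2.22 and a summed level of 1978 to 2201 FPKM in cattle-yak and 467 to 507 in yak. The same held for all 8 Leydig rows (median 1.90), all 6 myoid rows (1.94) and all 7 rows of the fibroblast and stroma list (2.44). After median-of-ratios scaling 11 Sertoli, 6 Leydig, 6 myoid and 6 fibroblast and stroma rows were called higher. For macrophages, which are rich in cathepsins, 5 of 9 rows were called higher and 2 lower, and 3 and 2 after median-of-ratios scaling. Their summed level reached 136 to 192 FPKM among hybrids against 112 to 151 among yaks, so the groups overlapped. A large part of the yak sums was AIF1 alone, with 56.5 to 69.5 FPKM there against 2.75 to 4.23 among hybrids. C1QA rose, with 34.3 to 53.6 FPKM against 4.46 to 15.3, and C1QB, C1QC, CD163 and CD68 were also called higher. AIF1 and CD14 were the rows called lower, and no macrophage row was at 0 in any library. Endothelial rows had a median of 1.13 (4 of 7 higher and 1 lower, with none higher after median-of-ratios scaling). For spermatogonial rows it was 1.95 (6 of 7 higher, and 5 after median-of-ratios scaling). For spermatocyte rows it was −0.14 (1 of 8 higher, or 0 without C3 or without Y1, and 1 lower, with 0 and 2 after median-of-ratios scaling). The part of these cell types in the cathepsin results was not tested.

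What the 8 genes shared beyond their names was their annotation in the table. All 8 carried the GO term lysosome, which 0.99% of the genes in the table carry, and all 8 stood in the KEGG lysosome pathway. In the KEGG apoptosis pathway were 7 of the 8, all except CTSA, and the same 7 carried the GO term extracellular space. Without these 8 genes, but with CTSO and CTSW, 60 of 111 tested genes of the lysosome pathway were called higher and 10 lower, with a median log2 (foldchange) of 1.14, and 33 and 15 after median-of-ratios scaling. Within the 119 tested genes of the whole pathway CTSA ranked 13, CTSB 15, CTSK 21 and CTSC 32 from the top. The more abundant CTSL ranked 45, the less abundant one 68, CTSZ 76 and CTSH 108. The 119 genes ran from 2.65 to −6.37 and the 8 cathepsins from 2.13 to −0.87, and the ranks rest on the same contrast as the fold changes.

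**Figure D5:**
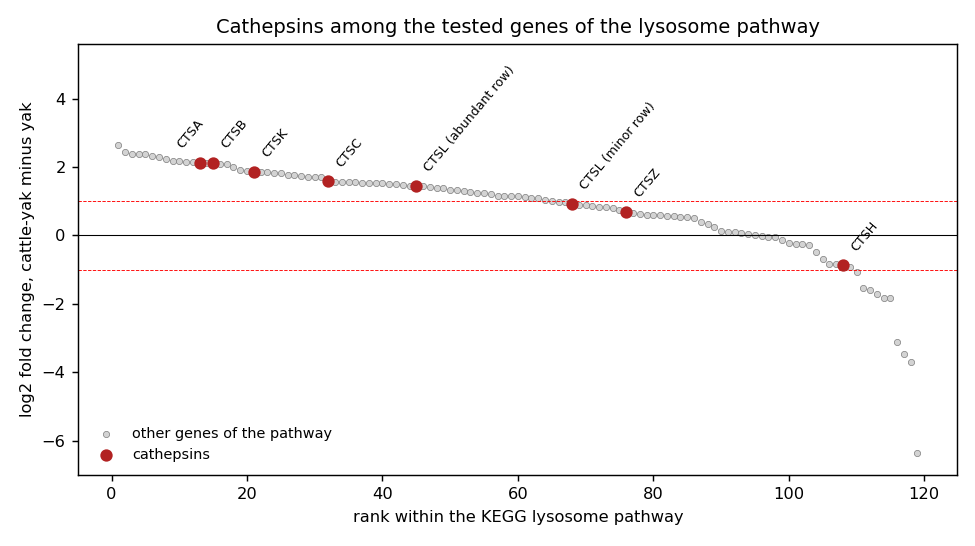
All 119 tested genes of the KEGG lysosome pathway are ordered by log2 (foldchange), with the 8 cathepsins in red and the thresholds of 1 and −1 dashed. CTSA and CTSB are near the top at ranks 13 and 15, and CTSH is at rank 108, below 0.

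Genes with the most similar profile over the 6 libraries were found by the smallest Euclidean distance of mean-centred log2 (FPKM + 1) among 14676 tested genes with a symbol. For CTSK this was LHCGR, the luteinizing hormone receptor of Leydig cells (distance 0.089), with 21.7 FPKM in cattle-yak and 5.11 in yak. ILDR2 was nearest to CTSB (0.086), GASK1B to CTSA (0.106) and Selenon to CTSC (0.119). TUBGCP5 was nearest to the more abundant CTSL (0.068), TEX13A to the less abundant one (0.233) and Vps13D to CTSZ (0.065). The nearest gene to CTSH was Ubap2 (0.208), with 85.1 FPKM in cattle-yak and 168 in yak. The 6 libraries fall into 2 groups, so genes with a group difference of like size come out near each other.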

How the data were processed

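Testis RNA of 3 cattle-yak and 3 yak was sequenced as stranded mRNA libraries. According to the published methods, the authors used Trimmomatic for trimming, HISAT2 for alignment against the yak genome, Cufflinks for FPKM and HTSeq for read counts. The values deposited by the authors are FPKM for 18918 genes, divided by the depth of each library but not scaled further between libraries. The columns carry the sample titles, and the groups were taken from the sample descriptions. Because a gene's FPKM stand in whole-number ratios between libraries, whole fragments were recovered for 17973 genes. A gene was kept only if its values lay within 0.03 of a whole number, so that closeness is no check of the recovery. The recovery was tested on simulated data.

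The 15042 genes whose mean reached 0.5 FPKM were fitted together after a log2 (FPKM + 1) transform. The tool was limma (version 3.58.1, under R 4.3.3), by lmFit and a trended two-sided eBayes, and p-values were adjusted over all of them by Benjamini-Hochberg. With this pseudocount, the fold change of low genes is understated. Shares were compared by exact permutation over the 10 divisions of 6 animals into 3 and 3. Python 3.11.15, numpy 2.4.6, pandas 2.3.3, scipy 1.17.1 and matplotlib 3.10.9 were used for the rest.

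The members, gene lists and tests were chosen with earlier results of these data known. Besides the members and the other cathepsins, the genes named are the most abundant gene of each pathway list, its largest change in each direction and every gene called lower, and for each member the gene nearest in profile. Marker lists are given by counts, medians and summed levels, with C1QA, AIF1 and CD14 named from them. Exceptions are stated. MITF, TFEB, C1QB, C1QC, CD163, CD68 and the major CD63 gene were also named after their values were seen. Alternatives were pseudocounts of 0.1 and 0.01, no filter or a minimum of 5 FPKM, median-of-ratios, equal-sum (TPM) and Sertoli-centred scaling, other limma priors, voom on the fragments, no fold-change threshold and the omission of each animal. The same alternatives were applied to the other named genes after the data had been seen. Sequences of the genes and their chromosome positions were not used here.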

Additional observations from a re-analysis of the deposited data

How the results depend on the processing

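For the 8 cathepsin genes, 111 of 127 alternative values kept their direction and their side of the thresholds. These include changes of the filter, the variance trend and the prior, which leave every log2 (foldchange) as reported. Only the adjusted p could change there. Each of the other 16 was counted once, by its sign first: 5 changed sign, 8 others passed a threshold that the reported value did not, and 3 others lost the call. Among the 5, CTSC, CTSK and the more abundant CTSL also lost the call. CTSZ and the less abundant CTSL, also among the 5, were newly called lower. All 5 sign changes came from centring on the Sertoli list, which moved the median of all tested genes to −1.60. Under it the members had a median log2 (foldchange) of −0.60, with 0 called higher and 3 lower, against 0.28% and 70.2% of all tested genes. CTSC (−0.52), CTSK (−0.25), CTSZ (−1.42), the more abundant CTSL (−0.67) and the less abundant CTSL (−1.18) changed to values below 0. The same centring reversed CTSW (−0.78), CST9 (−0.16), AHSG (−0.95), CST7 (−0.64), M6PR (−1.01), NEU1 (−0.98), LGMN (−0.61), GLB1 (−0.54), ATP6AP1 (−0.024), TFE3 (−0.30), TFEC (−2.05) and GZMK (−1.998). Every list counted in the report had 0 genes called higher under it. It subtracts the rise of the Sertoli genes from every gene, and whether that fits the cathepsins was not tested. Median-of-ratios scaling moved the median of the members to 0.92, with 4 called higher and 1 lower (CTSH), against 17.7% and 27.7% of all tested genes. It gave −0.23 for TFEC and −0.079 for GZMK. Without a fold-change threshold 7 members were higher and 1 lower, against 52.6% and 29.2% of all tested genes. Genes with values near 0 also changed sign when single animals were left out: the range was −0.096 to 0.24 for TFEC, −0.020 to 0.29 for GZMK, −0.65 to 0.079 for the minor GNPTG row and −0.12 to 0.018 for LAMP1. Among the shares, that of the more abundant CTSL reversed when measured on the log2 scale against the mean of the members (0.20), where CTSC and CTSK no longer overlapped. With single animals left out, the difference in the share of CTSC ranged from −0.068 (without Y3) to 0.33 percentage points, and that of the less abundant CTSL from −0.15 to 0.065, above 0 without C2, Y2 or Y3. The cause of these changes was not tested. No paired analysis was possible because the labels tie no cattle-yak to a yak, and the numbers in C1 to C3 and Y1 to Y3 serve as names only. Depth limits the less abundant CTSL gene, with 9 to 62 fragments per library, and the hybrid values of CST8 and CSTL1.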
